A study of Mus musculus with 12 samples.

Results

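The genes described here are 7 members of a pair of families of transcriptional regulators, the four-and-a-half LIM-domain (FHL) genes Fhl1, Fhl2 and Fhl3 and the nuclear factor of activated T cells (NFAT) genes Nfat5, Nfatc1, Nfatc3 and Nfatc4. They were taken by symbol from a fixed list, 7 of the 55414 identifiers in the count table, and all 7 were among the 14435 genes with enough counts to be tested. The cells were 3T3-L1, mouse preadipocytes that turn into fat cells under hormones, carrying either FHL2-GFP, a construct meant to overexpress the FHL2 protein tagged with green fluorescent protein, or control GFP (CTRL-GFP). Both lines were sampled when confluent (day 0) and after adipogenic induction until day 2 with 170 nM insulin, 1 µM dexamethasone, a glucocorticoid, and 0.5 mM isobutylmethylxanthine, which raises cyclic AMP, in medium with 10% fetal bovine serum. This made 4 groups of 3 libraries: control day 0, control day 2, FHL2 day 0 and FHL2 day 2. The labels give neither the promoter that drives the constructs nor whether a line is 1 clone. The labels do not say that the 3 libraries of a group came from separate cultures, so p-values measure only the spread between these libraries.

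FHL proteins consist almost entirely of LIM domains, zinc-binding modules that hold other proteins, and they have no known DNA-binding activity of their own. They bridge focal adhesions, the cytoskeleton and the nucleus, and act as coactivators or corepressors of transcription factors. NFATc proteins are held in the cytoplasm by phosphorylation. Calcium entry activates the phosphatase calcineurin, which strips the phosphates and lets them enter the nucleus, where they bind the core GGAAA. Nfat5 shares the Rel-type DNA-binding domain but not the calcineurin control, and it drives the response to high tonicity through sites with the core TGGAAA. In fat cell precursors the calcineurin pathway is known as a brake on adipogenesis. RNA levels do not report on phosphorylation or nuclear entry.

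Start-site regions of 3 members are shown because Fhl2 and Nfatc4 were the members whose change with induction passed the test with and without a correction for GC content, and Nfat5 is named with FHL2 in the title of the series. Each is 300 bases of the RefSeq table on GRCm38.p6, from 250 bases before a transcript's start to 50 after it, written in the gene's direction. The counts were made on GRCm39, so these coordinates hold for the older build only. Capitals mark GGAAA, the NFAT core, or its complement TTTCC. Fhl2 has one start at chr1:43196712-43197011 and another at chr1:43163912-43164211, both on the minus strand. Nfat5 lies at chr8:107293220-107293519 and Nfatc4 at chr14:55824545-55824844, both on the plus strand.
Fhl2, first start: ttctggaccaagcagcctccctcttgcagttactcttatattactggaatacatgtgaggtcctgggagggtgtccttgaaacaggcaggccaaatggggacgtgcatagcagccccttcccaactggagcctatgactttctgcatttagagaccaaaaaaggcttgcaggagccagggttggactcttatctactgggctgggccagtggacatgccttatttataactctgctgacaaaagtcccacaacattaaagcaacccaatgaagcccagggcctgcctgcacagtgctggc
Fhl2, second start: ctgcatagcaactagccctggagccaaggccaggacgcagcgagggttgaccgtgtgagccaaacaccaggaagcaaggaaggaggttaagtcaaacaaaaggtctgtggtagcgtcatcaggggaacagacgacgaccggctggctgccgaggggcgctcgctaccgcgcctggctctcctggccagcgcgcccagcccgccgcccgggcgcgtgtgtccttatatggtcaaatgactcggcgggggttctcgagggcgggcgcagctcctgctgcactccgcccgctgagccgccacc
Nfat5: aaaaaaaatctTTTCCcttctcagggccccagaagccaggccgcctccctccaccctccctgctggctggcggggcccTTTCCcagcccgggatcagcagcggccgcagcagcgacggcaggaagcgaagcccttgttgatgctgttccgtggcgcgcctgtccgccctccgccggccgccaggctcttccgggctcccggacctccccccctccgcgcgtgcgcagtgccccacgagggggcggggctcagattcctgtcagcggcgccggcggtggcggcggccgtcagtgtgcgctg
Nfatc4: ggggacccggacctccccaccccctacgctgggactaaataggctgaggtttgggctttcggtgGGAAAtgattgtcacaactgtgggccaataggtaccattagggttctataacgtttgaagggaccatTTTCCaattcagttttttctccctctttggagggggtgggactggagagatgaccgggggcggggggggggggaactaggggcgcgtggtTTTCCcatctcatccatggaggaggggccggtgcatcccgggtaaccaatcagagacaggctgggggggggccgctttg

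The Nfatc4 window held GGAAA 3 times on either strand, 1 of them within TGGAAA, the core of tonicity sites, which contains GGAAA. The Nfat5 window held GGAAA 2 times and TGGAAA 0 times. Neither Fhl2 window had a match. For Nfatc3, 1 match lay in the window of one start and 0 in that of the other, for Fhl1 likewise 0 and 1, and for Fhl3 0. Of all 32851 windows of that length in the table, 61.3% held GGAAA and 21.4% held TGGAAA. The cyclic AMP response element TGACGTCA (in 1.79% of windows) and the glucocorticoid response element, searched as AGAACA followed after 3 bases by TGTTC (in 0.0487%), were found in none of the 9 windows of the 6 members that the table lists. The GC box GGGCGG, present in 35.7% of windows, occurred 5 times at Fhl3, 3 times at the second Fhl2 start, 2 times each at Nfat5 and the second Nfatc3 start, and 1 time at Nfatc4, and was not found in the other windows. No start of Nfatc1 was matched. Motifs were searched on both strands, and a match is a description of the letters, not of binding.

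Depth was 10047708 to 21872139 counts per library. Genes with a count numbered 17977 to 18811 at day 0 and 12689 to 16131 at day 2, and mitochondrially encoded genes took 3.503% to 4.48% and 2.43% to 2.95% of the counts. Control replicate 3 and FHL2 replicates 1 and 2 of day 2 had the fewest genes. For the FHL and NFAT genes, test results that change without these 3 libraries are given both ways. Results for the lists of other genes are given with all libraries only. Whether the calls in those lists hold without these 3 libraries is not given here. The biological coefficient of variation at day 0 was 0.120 and at day 2 it was 0.3898, whereas the test shared 1 estimate, 0.283, over all. Of the 6 preadipocyte and fibroblast markers none was at 0, and their summed level was 16488 to 20596 CPM (the count scaled to the library total after TMM adjustment). The 5 adipocyte markers summed to 0.237 to 1.40 CPM at day 0, with the adipokine Lep at 0 throughout. At day 2 they summed to 37.97 to 62.5 CPM in control and 13.3 to 21.96 CPM in FHL2, without overlap. Myod1, Myog and Ckm of 6 muscle markers, Adgre1 and Cd3e of 5 macrophage and blood markers, and Epcam and Krt18 of 4 epithelial markers were at 0 in every library; the highest sum of any of these lists or of the 4 endothelial markers was 5.29 CPM. The labels call the line mesenchymal stem cells.

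With induction, as counted, 2 of the 7 genes (Fhl3 and Nfatc4) rose and 3 (Fhl2, Nfat5 and Nfatc3) fell in each line, and the other two did not pass the test. Over all genes tested 26.3% were called higher and 30.8% lower in control, and 25.8% and 30.2% in FHL2, so most genes tested moved. After correction for GC content 1 of the 7 rose, Nfatc4, and 1 fell, Fhl2, in each line, beside 27.1% called higher and 12.9% lower of all genes in control and 25.9% and 13.4% in FHL2.

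Fhl2, the coactivator that the construct carries, was the FHL gene with the most RNA at day 0 and fell with induction in both lines. In control cells the 3 libraries had 58.9, 61.0 and 63.6 CPM at day 0 and 13.9, 14.2 and 21.0 CPM at day 2. In FHL2 cells they had 67.4, 58.8 and 62.0 CPM at day 0 and 18.7, 9.92 and 22.6 CPM at day 2. Every day 2 library lay below every day 0 library, and within each day the lines overlapped. Fhl2 was 3.76-fold lower at day 2 in control (log2 fold change -1.91, SE 0.25, adjusted p = 1.40e-05) and 3.66-fold lower in FHL2 (-1.87, SE 0.25, adjusted p = 1.63e-05). In bulk RNA, fewer cells expressing a gene and less RNA per cell cannot be told apart. Without the 3 libraries with the fewest genes the fall was 2.07 in control and 1.46 in FHL2 on the log2 scale, and it passed the test under all 23 alternative settings in each line.

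Fhl3, a family member best known from muscle and from binding of CREB-type factors, moved the other way as counted. Control libraries had 33.2, 36.5 and 42.2 CPM at day 0 and 59.3, 45.2 and 82.0 CPM at day 2. FHL2 libraries had 39.5, 36.5 and 37.8 CPM at day 0 and 62.4, 55.05 and 52.5 CPM at day 2. The days did not overlap in either line, and control replicate 3 of day 2, the highest, is also the library with the fewest genes. The log2 fold change was 0.73 in control (SE 0.18, adjusted p = 0.00355) and 0.58 in FHL2 (SE 0.18, adjusted p = 0.0151), and neither passed after correction for GC content, as given below. Without FHL2 day 0 replicate 2 the rise in FHL2 did not pass either (0.54, adjusted p = 0.0547).

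Fhl1, the main FHL gene of skeletal muscle, was near the limit of detection, with 1.46 to 3.31 CPM in the 6 day 0 libraries. At day 2 the control libraries had 1.48, 2.87 and 0 CPM and the FHL2 libraries 6.03, 2.196 and 4.2995 CPM. The library at 0 is control replicate 3, where a count of 0 allows up to 0.324 CPM by counting error alone. No comparison of Fhl1 passed the test with all libraries; after GC correction and with the 3 gene-poor libraries left out, its day difference in FHL2 did (1.31, adjusted p = 0.0478). Its intervals were the widest of the 7 (for FHL2 against control at day 2, a log2 fold change of 1.5 with a 95% interval of -0.44 to 3.44, adjusted p = 0.408). The relatives Fhl4, with 0 to 81 counts per library, and Fhl5, with no count, are not among the 7.

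**Figure D1:**
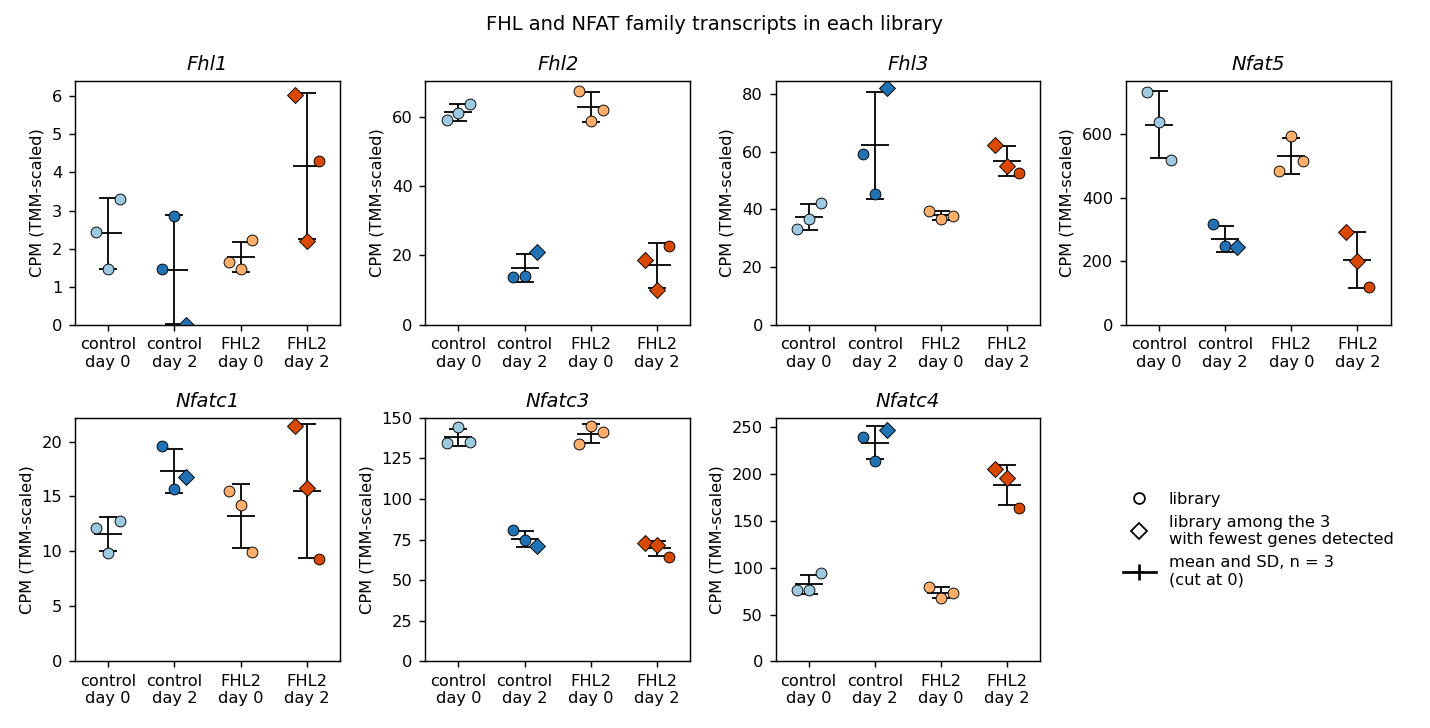
Level of each of the 7 genes in every library (vertical axes, CPM after TMM scaling, each from 0) by line and day; lines are the mean and SD of 3 libraries, and diamonds are the 3 libraries with the fewest genes detected. Day 2 lies below day 0 without overlap for Fhl2, Nfat5 and Nfatc3 and above it for Fhl3 and Nfatc4, while Fhl1 and Nfatc1 overlap between days in at least 1 line; with all libraries, only Fhl2 and Nfatc4 passed the test after GC correction.

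Among the NFAT genes, Nfat5 gave the most counts on average in each group. Nfatc4 had more counts in FHL2 day 2 replicate 3 (2711 against 1950) and in control day 2 replicate 3 (2283 against 2254). Control libraries had 731, 637 and 519 CPM at day 0 and 317, 248 and 244 CPM at day 2. FHL2 libraries had 483, 594 and 515 CPM at day 0 and 293, 199.7 and 118 CPM at day 2. The days were separate in both lines, and the lowest library of all 12 was FHL2 day 2 replicate 3. As counted, Nfat5 was 2.33-fold lower at day 2 in control (log2 fold change -1.22, SE 0.24, adjusted p = 0.000526) and 2.61-fold lower in FHL2 (-1.38, SE 0.24, adjusted p = 0.000201). This direction did not hold after correction for GC content in control, where the value was 0.28, and was -0.013 in FHL2; neither passed. With the 3 gene-poor libraries left out, the change as counted was -1.10 in control and -2.15 in FHL2, the latter resting on 1 day 2 library.

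Nfatc3, a calcium-regulated member expressed in many tissues, varied little between replicates. Control libraries had 135, 144 and 135 CPM at day 0 and 80.8, 74.6 and 71.1 CPM at day 2. FHL2 libraries had 134, 145 and 141 CPM at day 0 and 72.9, 71.8 and 64.1 CPM at day 2. The coefficient of variation was 3.88% to 6.92% over the 4 groups. As counted, Nfatc3 was 1.83-fold lower at day 2 in control (log2 fold change -0.87, SE 0.097, adjusted p = 3.41e-06) and 2.01-fold lower in FHL2 (-1.01, SE 0.097, adjusted p = 8.68e-07), but after GC correction the values were 0.0039 and -0.21 and neither passed. An annotation of the older build gives Nfatc3 219 exonic bases in common with Esrp2 on the opposite strand; Esrp2 had 4 counts over all 12 libraries.

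Nfatc4, the calcium-regulated member that has been studied in fat cell precursors as a regulator of adipogenic genes, rose in both lines. Control libraries had 76.5, 76.5 and 94.0 CPM at day 0 and 240, 214 and 247 CPM at day 2. FHL2 libraries had 79.2, 67.6 and 72.5 CPM at day 0 and 205, 195 and 164 CPM at day 2. The lowest day 2 library of all stood above the highest of day 0. At day 2, as counted, every FHL2 library stood below every control library. After GC correction the lines overlapped at day 2, with 133 to 179 CPM in FHL2 and 171 to 217 CPM in control. The share of all genes separated in this way is not given here. Nfatc4 was 2.84-fold higher at day 2 in control (log2 fold change 1.505, SE 0.12, adjusted p = 1.42e-07) and 2.58-fold higher in FHL2 (1.36, SE 0.12, adjusted p = 3.69e-07). The rise passed the test under all 23 alternative settings in each line, with log2 fold changes of 0.92 to 1.60 in control and 0.64 to 1.47 in FHL2.

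Nfatc1, the member whose own transcription is known to be raised by NFAT activity in lymphocytes and bone-resorbing cells, was the scarcest of the 4. Control libraries had 12.2, 9.82 and 12.8 CPM at day 0 and 19.6, 15.7 and 16.8 CPM at day 2, without overlap. FHL2 libraries had 15.5, 14.2 and 9.92 CPM at day 0 and 21.4, 15.7 and 9.33 CPM at day 2, so the days overlapped there and FHL2 day 2 replicate 3 was the lowest library of all 12. Neither change passed the test (log2 fold change 0.58, adjusted p = 0.105 in control, and 0.23, adjusted p = 0.529 in FHL2). In control it passed when only the control libraries were fitted (0.64, adjusted p = 0.0329), when the 3 gene-poor libraries were left out (0.66, adjusted p = 0.0143) and without FHL2 day 2 replicate 3 (0.62, adjusted p = 0.0412). Nfatc2, with 0 to 24 counts per library, is not among the 7.

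**Figure D2:**
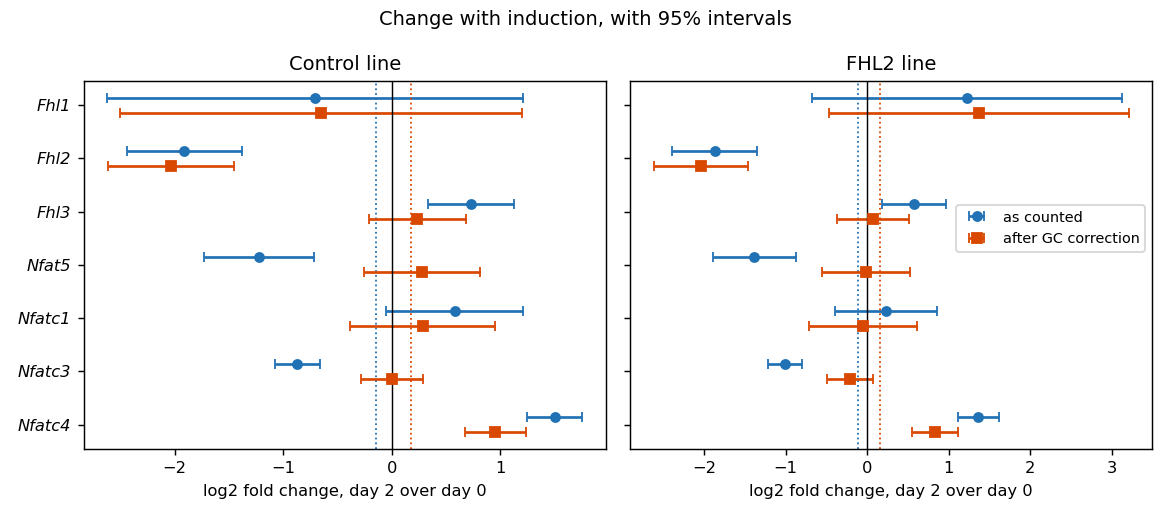
Log2 fold change from day 0 to day 2 (horizontal axis) of each gene in the control line and in the FHL2 line, with 95% intervals, as counted (circles) and after correction for GC content (squares); dotted lines are the median over all genes tested. The fall of Fhl2 and the rise of Nfatc4 lie clear of 0 on both scales, whereas Nfat5, Nfatc3 and Fhl3 lie clear of 0 only as counted.

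Across the whole table, the change with induction went with the GC content of transcripts. In 5 equal classes of 2882 genes by GC content of the longest transcript, the median log2 fold change in control rose from -1.79 in the class of lowest GC content through -0.76, -0.048 and 0.49 to 0.73 in the highest, and in FHL2 from -1.63 to 0.69. The 7 genes span these classes. Nfat5, with 42.8% GC and a longest transcript of 13443 bases, longer than 99.4% of genes tested, is in the lowest class, and Nfatc3 (45.9% GC) is in the second. Fhl1 (50.04%) is in the third, Fhl2 (52.3%) and Nfatc1 (53.7%) are in the fourth, and Fhl3 (57.2%) and Nfatc4 (58.8%) are in the highest. Whether the relation with GC content comes from the libraries or from the cells was not tested.

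Within its class Fhl2 stood near the low end, since only 4.55% of genes of like GC content had a lower fold change, in control and in FHL2 alike. Nfatc4 stood above 88.0% of its class in control and 85.5% in FHL2. Nfat5 stood above 68.0% and 57.8% of its class, so among transcripts of like GC content its decrease was smaller than the median one. Nfatc3 (above 46.0% and 39.3%), Fhl3 (50.4% and 43.7%) and Nfatc1 (54.6% and 37.9%) lay mid-class. Fhl1 differed between the lines, at 27.4% and 91.4%, on few counts.

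**Figure D3:**
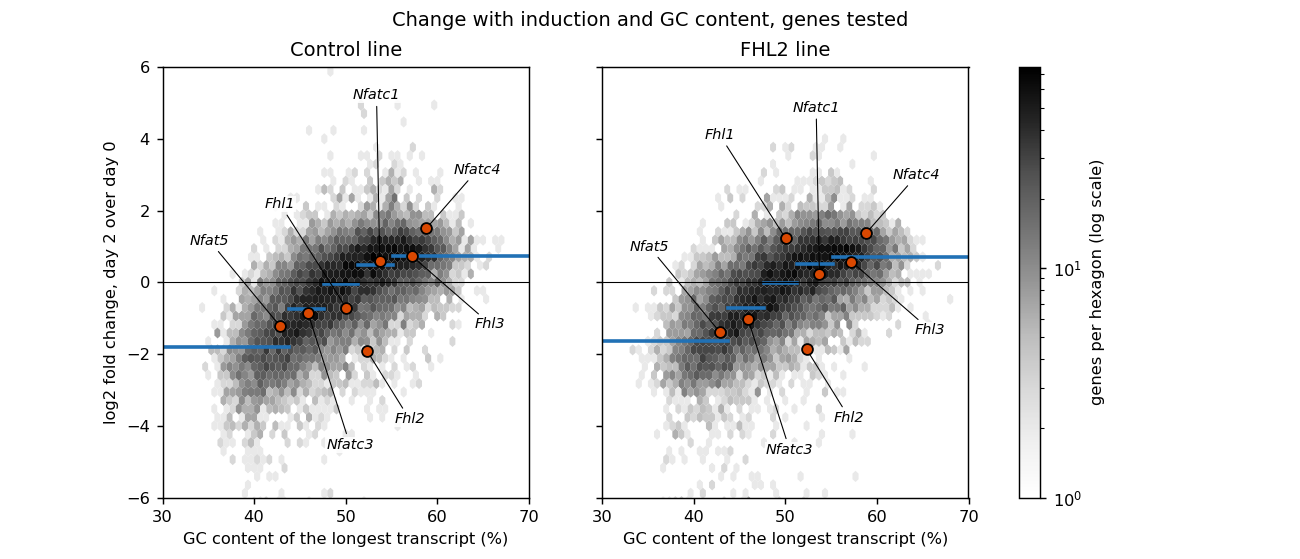
GC content of the longest transcript (horizontal axis, percent) against the log2 fold change from day 0 to day 2 (vertical axis) of the genes tested, with hexagons shaded by number of genes on a log scale, blue bars for the median of each of 5 GC classes, and the 7 genes as orange points; genes beyond the axes are not drawn. Fhl2 lies far below its class median and Nfatc4 above it, while Fhl3, Nfatc1 and Nfatc3 lie near theirs.

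The GC correction, a smooth offset per library, moved the median of all genes from -0.14 to 0.18 in control and from -0.11 to 0.16 in FHL2, so values are also given relative to that median. Relative to it, the corrected change was -2.21 in control and -2.20 in FHL2 for Fhl2, and 0.78 and 0.68 for Nfatc4. It was 0.10 and -0.17 for Nfat5, -0.17 and -0.37 for Nfatc3, 0.060 and -0.087 for Fhl3, and 0.11 and -0.21 for Nfatc1. Before that subtraction Fhl2 had -2.04 in both lines (adjusted p = 3.19e-05 and 2.90e-05), and Nfatc4 had 0.96 (adjusted p = 4.30e-05) and 0.84 (adjusted p = 0.000143). With transcript length added to the correction, Nfat5 was called higher at day 2, by 0.69 in control (adjusted p = 0.00285) and 0.43 in FHL2 (adjusted p = 0.0432), the opposite of its direction as counted, beside 40.3% and 39.2% of all genes called in either direction. With GC content taken over all transcripts of a gene, Nfatc3 was called higher in control (0.51, adjusted p = 0.0103), beside 39.3% of all genes called. When the GC correction was made with the 3 gene-poor libraries left out, so that 1 FHL2 library remains for day 2, Nfat5 (-0.97, adjusted p = 7.91e-05), Nfatc3 (-0.47, adjusted p = 0.00618) and Nfatc1 (-0.85, adjusted p = 0.0196, against 0.23 as counted) were called lower in FHL2, beside 47% of all genes called in either direction.

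Levels of different genes were compared per kilobase of the longest transcript, which puts the 13443-base Nfat5 and the 1563-base Fhl2 on 1 scale. Among the FHL genes at day 0, Fhl2 made up 62.8% ± 2.01 (SD, n = 3) of the summed level in control and 63.1% ± 0.731 in FHL2, and Fhl3 35.8% ± 1.80 and 35.9% ± 0.681. At day 2 Fhl2 had 21.8% ± 2.36 and 23.1% ± 7.31, and Fhl3 had 76.9% ± 3.46 and 73.7% ± 8.01. Fhl1 stayed between 0% and 4.22% in any library. The order of Fhl2 and Fhl3 was thus opposite on day 0 and day 2 in all 12 libraries.

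In the NFAT family Nfat5 came first at day 0, with 49.5% ± 5.598 (SD, n = 3) of the level per kilobase in control and 46.4% ± 2.96 in FHL2. Nfatc4, with 23.3% ± 4.14 and 22.9% ± 2.70, and Nfatc3, with 24.6% ± 1.73 and 27.6% ± 0.725, came next. Their libraries overlapped at control day 0, and with the mean transcript length in place of the longest their order there changed. At day 2 Nfatc4 came first in every library, with 63.1% ± 2.79 and 62.9% ± 4.19, ahead of Nfat5 with 20.4% ± 2.11 and 18.4% ± 4.96. Nfatc3 had 12.9% ± 0.856 and 14.8% ± 1.69 at day 2, below Nfat5 in control and overlapping with it in FHL2. Nfatc1 was last in all groups, with mean shares of 2.57% to 3.94%. These shares are as counted. After GC correction, on the same length scale, Nfatc4 stood above Nfat5 in FHL2 day 0 replicate 1 (log2 ratio 0.25) and control day 0 replicate 3 (0.13). It stood below Nfat5 in the other day 0 libraries.

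**Figure D4:**
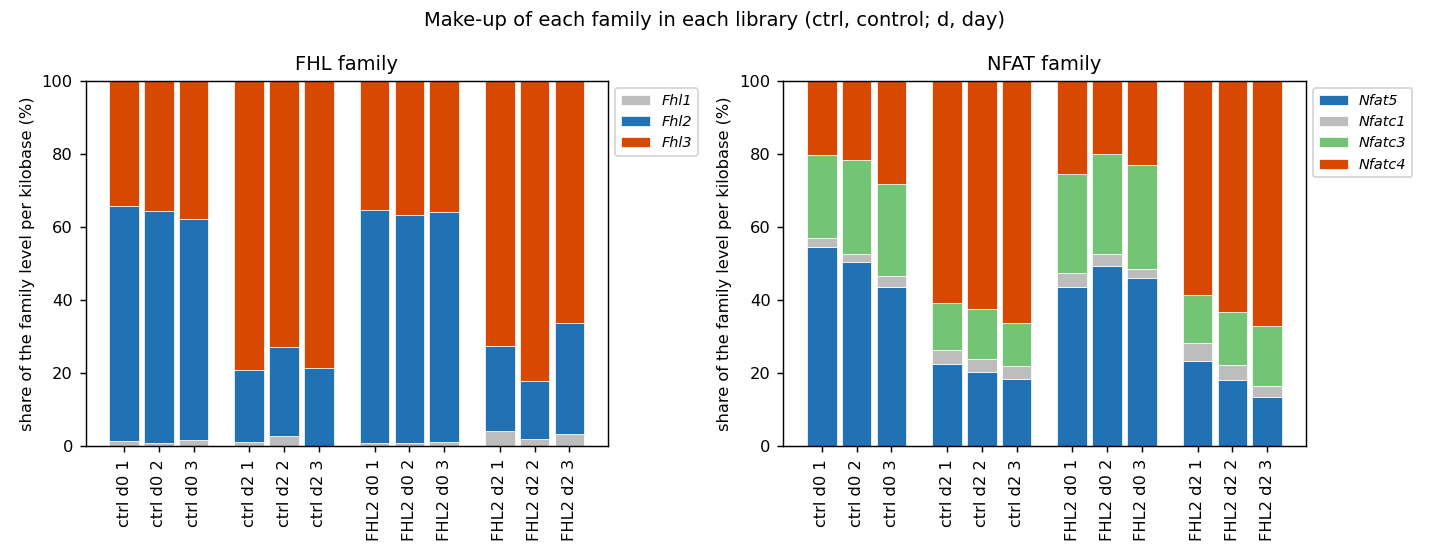
Share of each gene in its family's summed level per kilobase of the longest transcript (vertical axis, percent), 1 bar per library, for the FHL genes and the NFAT genes, as counted. Fhl2 is the larger share in the 6 day 0 libraries and Fhl3 in the 6 day 2 libraries, and Nfatc4 replaces Nfat5 as the largest NFAT share at day 2.

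Ratios between genes were also taken per kilobase of the longest transcript. Their sign depends on the lengths used, while their difference between days does not. The log2 ratio of Fhl3 to Fhl2 averaged -0.81 ± 0.080 (SD, n = 6) over the day 0 libraries of both lines and 1.77 ± 0.43 over those of day 2. No day 0 library overlapped with a day 2 library, and these ratios were chosen after the values were seen, so they are given as a description. After GC correction the ratio still went from -0.63 to 1.59. The log2 ratio of Nfatc4 to Nfat5 went from -1.06 ± 0.31 to 1.72 ± 0.35 (SD, n = 6 and 6), again without overlap. After GC correction it went from -0.078 ± 0.23 to 0.74 ± 0.37, with no overlap, a difference of 0.82 in place of 2.78.

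Between the lines, none of the 7 genes was called at day 0 or at day 2 with all libraries and the filter on low counts, by edgeR or by DESeq2; without that filter Nfat5 was called at day 2, as given below. Over all genes tested, 0.0485% were called at day 0 and 2.07% at day 2. These shares depend on the spread shared over all groups. When only the groups compared were fitted, 1.75% were called at day 0 and 0.304% at day 2, and none of the 7. The one of the 7 with an unadjusted p under 0.05 was Nfatc4 at day 2 (log2 fold change -0.31, SE 0.12, unadjusted p = 0.0181, adjusted p = 0.177). Fhl2 itself differed by 0.036 at day 0, with a 95% interval of -0.46 to 0.54, and by 0.075 at day 2, with an interval of -0.45 to 0.60. The intervals thus allow up to 1.45-fold and 1.52-fold more Fhl2 RNA in the FHL2 line. The sources do not say whether construct transcripts count toward mouse Fhl2. The Fhl2 values therefore do not tell how much RNA the construct gave, and directions follow the labels. The summed adipocyte markers were lower in FHL2 than in control at day 2, as given above. Whether line differences of the 7 genes at day 2 go with this was not tested.

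Nfat5 had a log2 fold change, FHL2 over control, of -0.25 at day 0 (95% interval -0.75 to 0.26, adjusted p = 1.00) and of -0.41 at day 2 (-0.91 to 0.10, adjusted p = 0.3896), and neither passed the test. With all libraries Fhl3, Nfatc1 and Nfatc3 differed by -0.16 to -0.12 at day 2 and by 0.022 to 0.19 at day 0. No gene of the 7 had a called interaction of line and day, beside 0.00693% of all genes; their smallest unadjusted p was 0.148, for Fhl1, and DESeq2 called none.

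Leaving out the 3 libraries poorest in genes, so that 1 FHL2 and 2 control libraries remain for day 2, changed these calls. Fhl2 was then called higher in the FHL2 line at day 2 (log2 fold change 0.66, adjusted p = 0.0206) and Nfat5 lower (-1.29, adjusted p = 0.00218), beside 10.1% of all genes called. Nfatc1 differed by -0.94 (adjusted p = 0.0623), Nfatc4 by -0.49 (adjusted p = 0.0655), Nfatc3 by -0.31 (adjusted p = 0.152) and Fhl3 by -0.020 (adjusted p = 0.992), and none of these passed. With GC correction added, Nfatc1 (-0.91, adjusted p = 0.0487) and Nfatc4 (-0.44, adjusted p = 0.0358) were also called lower, beside 14.3% of all genes. As counted, Nfat5 also had a called interaction without these libraries (-1.05, adjusted p = 0.0304), beside 1.52% of all genes. The lone FHL2 library is replicate 3, which has the highest Fhl2 and the lowest Nfat5 and Nfatc1 of the FHL2 day 2 libraries, and it is assumed to vary like the other groups. Without that replicate in place of the other 3 libraries, the Fhl2 difference was -0.19 and the Nfat5 difference -0.15, and neither passed. Without a filter on low counts Nfat5 was also called lower at day 2 (-0.41, adjusted p = 0.00747), beside 3.51% of the 24091 genes then tested.

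**Figure D5:**
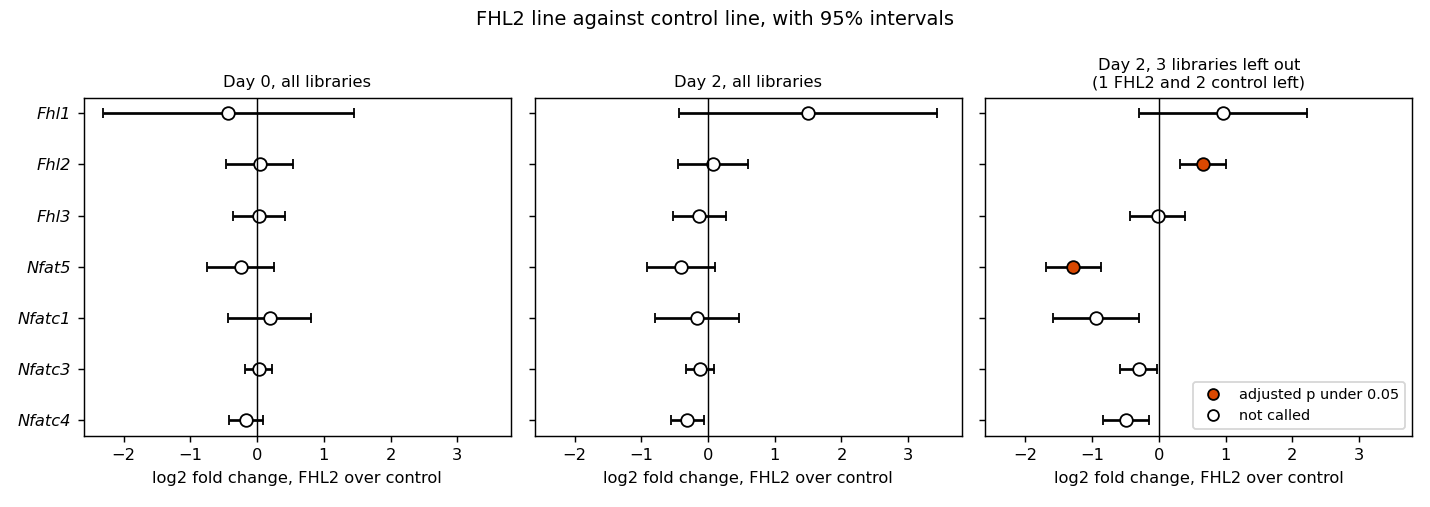
Log2 fold change of the FHL2 line over the control line (horizontal axis) for each of the 7 genes with 95% intervals, at day 0, at day 2 with all libraries, and at day 2 without the 3 libraries with the fewest genes; filled points are called at an adjusted p under 0.05. No point is filled in the first and second panels, and Fhl2 (0.66) and Nfat5 (-1.29) are filled in the third, which rests on 1 FHL2 library.

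The apparatus that controls NFATc proteins was taken as a list of 22 genes of calcineurin, its regulators and the NFAT kinases, of which 19 were tested. In control 5 rose and 10 fell with induction (median log2 fold change -0.85, all genes -0.14), and in FHL2 6 rose and 10 fell (median -0.63, all genes -0.11). Of all genes 26.3% rose and 30.8% fell in control, and 25.8% and 30.2% in FHL2; each pair of shares beside a list below is in that order. The catalytic subunit Ppp3cb went from 61.2 ± 1.55 to 24.2 ± 2.52 CPM in control and the regulatory subunit Ppp3r1 from 79.6 ± 7.65 to 29.3 ± 3.24 CPM (SD, n = 3). After GC correction 3 rose and 3 fell in control (all genes 27.1% and 12.9%, median 0.18) and 5 rose and 3 fell in FHL2 (all genes 25.9% and 13.4%, median 0.16); Ppp3cb was then called higher in control (log2 fold change 0.75, adjusted p = 0.0301, against -1.34 as counted), and Ppp3r1 did not pass. The kinase gene Dyrk2, whose product phosphorylates NFAT, fell on both scales, by 1.41 as counted and 0.73 after correction in control (adjusted p = 0.000367 and 0.0442), and by 1.85 and 1.21 in FHL2. Among those counted as risen in FHL2 is the cyclophilin gene Ppia, whose day 2 level of 69.4 ± 105 CPM had an SD above its mean, and whose reads may be shared with its many processed copies. No gene of this list was called between the lines, beside 0.0485% of all genes at day 0 and 2.07% at day 2.

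Store-operated calcium entry supplies the calcium that activates calcineurin, and all 8 listed genes were tested. In each line 3 rose and 2 fell, beside 26.3% and 30.8% of all genes in control and 25.8% and 30.2% in FHL2. The median was 0.18 in control (all genes -0.14) and 0.23 in FHL2 (all genes -0.11). The sensor gene Stim1 rose from 32.1 ± 2.50 to 77.8 ± 12.9 CPM in control and from 38.2 ± 4.03 to 71.9 ± 4.23 CPM in FHL2 (SD, n = 3), and the channel gene Orai3 from 33.6 ± 2.29 to 88.3 ± 17.4 CPM and from 29.5 ± 3.18 to 91.5 ± 13.8 CPM. The second sensor gene, Stim2, fell from 48.6 ± 2.14 to 15.7 ± 4.72 CPM and from 50.8 ± 2.95 to 18.02 ± 1.63 CPM, and the store release channel Itpr1 fell from 62.3 ± 4.39 to 30.2 ± 6.51 CPM in control. These 4 kept their direction and passed the test after GC correction in both lines, with 2 risen and 2 fallen in control (all genes 27.1% and 12.9%) and 2 and 3 in FHL2 (25.9% and 13.4%). Itpr3, another release channel, was lower in the FHL2 line at day 2 (107 ± 12.3 against 154 ± 15.8 CPM, log2 fold change -0.52, adjusted p = 0.0426), 1 of 8 called beside 2.07% of all genes. This did not pass after GC correction (adjusted p = 0.0733). When only the day 2 groups were fitted 0.304% of all genes were called, and Itpr3 is not given for that fit.

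The other Rel-domain genes, those of NF-kB and its inhibitors, were all 8 tested. In control 5 rose and 1 fell (median 0.80, all genes -0.14), beside 26.3% and 30.8% of all genes. In FHL2 6 rose and 2 fell (median 0.61, all genes -0.11), beside 25.8% and 30.2%. Nfkb2, which encodes the p100 precursor, rose from 99.5 ± 6.32 to 239.6 ± 11.6 CPM in control and from 87.5 ± 6.07 to 186 ± 27.9 CPM in FHL2 (SD, n = 3) and was called on both scales. After GC correction 4 rose and 0 fell in control (all genes 27.1% and 12.9%) and 3 rose and 0 fell in FHL2 (25.9% and 13.4%); Nfkb1, fallen as counted, was among those risen after correction in both lines.

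Of 10 genes listed as targets of Nfat5 under high tonicity, 9 were tested. As counted 2 rose and 4 fell in control (median -1.14, all genes -0.14), beside 26.3% and 30.8% of all genes, and 2 rose and 5 fell in FHL2 (median -0.25, all genes -0.11), beside 25.8% and 30.2%. The water channel Aqp1 rose from 291 ± 24.0 to 1173 ± 113 CPM in control and from 294 ± 17.1 to 1208 ± 42.0 CPM in FHL2 (SD, n = 3), and Akr1b3, aldose reductase, which makes the osmolyte sorbitol, from 29.0 ± 2.78 to 62.1 ± 9.30 CPM in control. Both passed after GC correction in both lines, and no gene of the list was called lower on that scale, beside 12.9% of all genes in control and 13.4% in FHL2. Slc5a3, the myo-inositol carrier, went from 212 ± 37.4 to 82.4 ± 22.4 CPM in control, a log2 fold change of -1.36 as counted (adjusted p = 0.000184) and 0.41 after correction (adjusted p = 0.219). Slc38a2, an amino acid carrier, was lower in the FHL2 line at day 2, with 84.95 ± 11.5 against 133 ± 8.06 CPM (log2 fold change -0.64, adjusted p = 0.00653, and -0.71, adjusted p = 0.0371, after GC correction), beside 2.07% of all genes called at day 2 as counted and 1.47% after correction. When only the day 2 groups were fitted 0.304% of all genes were called, and Slc38a2 is not given for that fit.

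All 18 genes listed as partners of the FHL2 protein were tested. In control 6 rose and 7 fell with induction (median -0.63, all genes -0.14), beside 26.3% and 30.8% of all genes. In FHL2 4 rose and 7 fell (median -0.47, all genes -0.11), beside 25.8% and 30.2%. The nuclear receptor gene Nr4a1 rose from 12.002 ± 2.36 to 142 ± 9.94 CPM in control and from 14.6 ± 0.630 to 90.9 ± 13.7 CPM in FHL2 (SD, n = 3), and Sphk1, sphingosine kinase, from 6.48 ± 0.886 to 75.6 ± 13.0 CPM and from 4.73 ± 0.375 to 65.6 ± 2.62 CPM. Sirt1, a deacetylase, fell from 17.5 ± 2.73 to 2.95 ± 1.18 CPM in control. These 3 were called on both scales in both lines; after GC correction 4 rose and 3 fell in control (all genes 27.1% and 12.9%) and 4 and 2 in FHL2 (25.9% and 13.4%). At day 2 Nr4a1 was lower in the FHL2 line (log2 fold change -0.65, adjusted p = 0.0369, and -0.64, adjusted p = 0.0456, after GC correction). Jun, a subunit of AP-1, had 94.0 ± 4.58 against 148 ± 40.1 CPM (log2 fold change -0.65, adjusted p = 0.0420), which did not pass after GC correction (adjusted p = 0.0885). Over all genes 2.07% were called between the lines at day 2 as counted and 1.47% after correction. When only the day 2 groups were fitted the share was 0.304%, and Nr4a1 and Jun are not given for that fit.

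Of 28 other LIM-domain adaptor genes of the cytoskeleton 24 were tested. In control 7 rose and 8 fell (median 0.074, all genes -0.14), beside 26.3% and 30.8% of all genes. In FHL2 9 rose and 7 fell (median 0.014, all genes -0.11), beside 25.8% and 30.2%. None was called between the lines on either day, where 0.0485% and 2.07% of all genes were. Csrp2, a cysteine-rich LIM protein, rose from 74.2 ± 9.49 to 200.4 ± 13.7 CPM in control and from 65.3 ± 6.20 to 203 ± 14.3 CPM in FHL2 (SD, n = 3). Ablim1, an actin-binding LIM protein, fell from 90.9 ± 9.57 to 17.1 ± 4.21 CPM in control and from 77.0 ± 5.55 to 17.1 ± 1.12 CPM in FHL2, and Lmo7 fell from 52.6 ± 2.19 to 11.4 ± 4.24 CPM in control. These 3 were called on both scales in both lines, and after GC correction 7 rose and 6 fell in control (all genes 27.1% and 12.9%) and 8 and 6 in FHL2 (25.9% and 13.4%). Lims1, which encodes the focal adhesion adaptor PINCH, was called lower as counted (-2.20 in control) but did not pass after correction (-0.23, adjusted p = 0.555).

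The genes whose levels ran most like each of the 7 were found by Pearson's r of log2(CPM + 1) over the 12 libraries among 9721 others averaging at least 5 CPM. All libraries share the step between days, so high values of r are common, and r is given as a description. Fhl2 ran most like Mtbp (r = 0.990), Pqlc3 (0.986) and Cbx1 (0.984), whose GC contents of 46.8%, 43.8% and 44.8% are below its own 52.3%. Nfat5 ran most like Cdc42bpa (0.991), Sp1 (0.989) and Smg1 (0.986), with GC contents of 43.6% to 44.9%. Nfatc4 ran most like Rcc2 (0.997), Zfp385a (0.995) and Mrtfa (0.995), with 58.0% to 62.6% GC. Nfatc3 was most like Trim44 (0.994), Fhl3 most like Mxra8 (0.972), Nfatc1 most like Iqsec2 (0.864) and Fhl1 most like Hspbap1 (0.887). Among the 7, r was 0.93 between Nfat5 and Nfatc3, 0.92 between Fhl2 and Nfatc3, 0.80 between Fhl2 and Nfat5, 0.89 between Fhl3 and Nfatc4, and -0.94 between Fhl2 and Nfatc4.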

How the data were processed

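The authors deposited raw counts per Ensembl gene for 12 stranded polyadenylated libraries, 1 column each. HISAT2 2.2.1, HTSeq 0.11.0, Trimmomatic 0.39 and the build GRCm39 (mm39) are named, per the submitters' processing notes; annotation release and strand setting: not given in the sources used here. Symbols were matched by identifier for 52081 of 55414 rows.

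Genes were tested with edgeR 4.0.16 (R 4.3.3): filterByExpr by group, TMM scaling and a quasi-likelihood fit of the 4 group means over all 12 libraries. P-values are two-sided and Benjamini-Hochberg adjusted over the 14435 genes tested, a gene being called under 0.05, and intervals are at 95%. Only the main fit was tested on simulated counts, for day 2 against day 0 in control. The simulated libraries all had the same spread and no GC effect, unlike the data. The GC correction, the line comparisons and the interaction were not tested in this way. Depth was 10047708 to 21872139 counts per library; the floor of 3 counts covers counting error only. GC content and length came from GENCODE M21 (GRCm38) for 99.8% of genes tested; the correction was a spline of 6 degrees of freedom per library as an offset. Alternatives were RLE scaling, no filter, DESeq2 1.42.0, only the groups compared, a replicate block, GC content with and without the block or length, leaving out 3 day 2 libraries or each library, and, added after seeing the data, GC correction without those 3 libraries and GC content over all transcripts.

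The 7 genes, the 6 gene lists, the comparisons and the tests were chosen with earlier results of these data known. Besides the 7, the rule named up to 4 called genes per list and day comparison with the largest change and at least 5 CPM on average, every list gene called between the lines, and the 3 genes most like each member; not every gene so named is printed. Promoter windows are from a RefSeq table on GRCm38.p6, which listed 6 of the 7.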

Additional observations from a re-analysis of the deposited data

How the results depend on the processing

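The calls of Fhl2 and Nfatc4 between days held under all alternatives, and no alternative gave a call at day 0. Over all groups, replicate numbers did not clearly pair the libraries (correlations of same-numbered libraries -0.086 to 0.10, of others -0.14 to 0.100). Between control day 0 and control day 2, however, same-numbered libraries had 0.073, 0.032 and 0.077, above all others there (-0.068 to 0.017). With the replicate block 5 of the 7 were called between days in control (55.5% of all genes) and 5 in FHL2 (54.4%). Elsewhere the block gave 0, as without it, beside 0.0762% of all genes between lines at day 0 and 1.45% at day 2. For the interaction that share was 0.00693%. Of the 7, in place of 5 between days in control (57.1% of all genes), 2 were called with GC correction (40%), 2 with GC correction and the replicate block (37.6%), 2 with GC correction without the 3 libraries with the fewest genes (53.4%), 3 with GC content and length (40.3%), and 3 with GC content over all transcripts (39.3%). With Nfatc1 added there were 6 with only the groups compared (59.6%) and 6 without FHL2 day 2 replicate 3 (57.6%). Nfatc1 was added as well in the fit as counted without the 3 libraries, which is given with that gene above. In FHL2, in place of 5 (56% of all genes), it was 2 with GC correction (39.3%), 2 with the block added (36.9%) and 3 with length (39.2%). It was 2 over all transcripts (38.5%) and 4 without FHL2 day 0 replicate 2 (47.4%), where Fhl3 did not pass. GC correction without the 3 libraries leaves 1 FHL2 library for day 2 and is not in this list. Its log2 fold changes in FHL2 for Nfat5, Nfatc3 and Nfatc1 are given above. In place of 0 at day 2 between lines (2.07% of all genes) it was 1 without the filter (3.51%), 2 without the 3 libraries (10.1%) and 4 with GC correction added to that (14.3%); for the interaction it was 1 without the 3 libraries (1.52%) and 1 with GC correction added (4.54%). Those 4 were Fhl2 (0.68), Nfat5 (-1.28), Nfatc1 (-0.91) and Nfatc4 (-0.44).

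Directions changed as follows, as log2 fold changes. Between days in control, Nfat5 had 0.28 with GC correction, 0.29 with the block added, 0.69 with length, 0.15 with GC correction without the 3 libraries and 0.37 over all transcripts; Nfatc3 had 0.0039, 0.0040 with the block, 0.17 with length and 0.51 over all transcripts; Fhl3 had -0.029 with GC correction without the 3 libraries. In FHL2, Nfat5 had 0.43 with length and 0.072 over all transcripts, Nfatc3 0.010 and 0.25, Fhl3 -0.056 with length and -0.046 with GC correction without the 3 libraries, and Nfatc1 -0.054 with GC correction, -0.089 with the block, -0.075 over all transcripts, -0.48 as counted without the 3 libraries and -0.85 with GC correction without them. Between lines at day 2, Fhl2 had -0.044 with GC content and length and Fhl3 0.029 with GC correction without the 3 libraries. The Fhl2 interaction was -0.0079 with GC correction, -0.019 with the block, -0.058 with length and -0.011 over all transcripts. The cause was not tested.

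Leaving out 1 library at a time gave 5 to 6 of the 7 called between days in control, beside 47.7% to 58.8% of all genes. In FHL2 it gave 4 to 5, beside 47.4% to 59.3%. Between lines and for the interaction it gave 0. Of all genes, 0.00672% to 0.0664% were then called between lines at day 0 and 0.972% to 2.69% at day 2. For the interaction the share was 0% to 0.0398%. The sign then varied, with no call, for the line difference at day 0 of Fhl2 (-0.020 to 0.080), Nfatc3 (-0.0052 to 0.054) and Fhl3 (-0.055 to 0.12), and at day 2 of Fhl2 (-0.19 to 0.35), Fhl3 (-0.31 to 0.080) and Nfatc1 (-0.47 to 0.084). It also varied for the day difference of Nfatc1 in FHL2 (-0.054 to 0.51) and the interactions of Nfat5 (-0.54 to 0.081), Fhl2 (-0.24 to 0.30) and Fhl3 (-0.34 to 0.045). Depth limits Fhl1, at 0 to 87 counts per library.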
